A study of Mus musculus with 14 samples.

Results

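The 8 transcripts described here encode the Smad proteins of the mouse, *Smad1*, *Smad2*, *Smad3*, *Smad4*, *Smad5*, *Smad6*, *Smad7* and *Smad9*. They were chosen by name, as the rows of the count tables whose symbol is one of these 8, out of 23284 counted symbols. All 8 passed the filter on low counts and were among the 12393 genes tested. RNA was sequenced from the pooled left and right forelimb buds of single embryos, in 4 groups that combine 2 genotypes with 2 stages. Embryos with 30 somites are called E10.0 and those with 35 somites E10.5. Mutants carried 1 constitutive null and 1 conditionally deleted *Smad4* allele together with the Cre transgene (*Smad4*Δ/Δc PrxCreT/+, n=4 per stage). Controls, called wild type below, had 2 intact *Smad4* alleles and also carried the Cre transgene (*Smad4*+/+ PrxCreT/+, n=3 per stage). The labels give the strain as NMRI. They describe the mothers of the embryos as homozygous for the floxed allele, whereas the study's methods describe them as heterozygous, with littermates as controls. Mothers homozygous for the floxed allele cannot bear *Smad4*+/+ embryos. Under the labels, the controls would thus come from other litters, and genotype could not be told apart from litter. The Cre is driven by *Prrx1* regulatory sequence, so that deletion is limited to the limb mesenchyme, while ectoderm, endothelium and blood in the same buds keep 1 undeleted allele.

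Smad proteins carry the signals of BMP, TGFβ and activin ligands from receptors at the cell surface into the nucleus. Receptor-regulated Smads are phosphorylated by the type I receptors: SMAD1, SMAD5 and SMAD9 mainly by BMP receptors, SMAD2 and SMAD3 mainly by TGFβ and activin receptors. SMAD4 is the common partner that binds the phosphorylated forms of both branches, and SMAD6 and SMAD7 are inhibitory Smads, which are known as targets of the pathway they restrain.

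Between 34066930 and 61691258 reads were counted on genes per embryo. Levels are given as normalized counts, in CPM, that is reads scaled to the corrected number of reads counted on autosomal genes. The rarest member, *Smad9*, was covered by 13 to 237 reads per embryo, and the other 7 by 232 to 19586. None of the distinct 50-base stretches of the annotated Smad transcripts, between 2852 per gene in *Smad6* and 7210 in *Smad5*, occurred in a protein-coding transcript of another gene, and none of the 8 loci overlapped another counted gene. Mutant replicates 4 and 5 of both stages stood apart from the other 10 libraries by the share of reads on the ribosomal precursor gene *Rn45s*, at 1.72% to 8.05% against 0.151% to 0.478%. Since both kinds of mutant library occur at each stage and wild-type libraries are all of 1 kind, each count of called Smad members below is also given for the samples numbered 1 to 3 alone.

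*Smad4* was measured first, since it checks the genotype labels. The gene spans 73798663 to 73863434 on the minus strand of chromosome 18 (mm9). At E10.0, its level was 169, 152 and 161 CPM in the wild-type embryos and 38.4, 46.0, 37.7 and 36.9 CPM in the mutants. At E10.5, it was 167, 163 and 167 CPM in wild type and 40.7, 38.8, 32.9 and 35.6 CPM in mutants. All 8 mutants lay far below all 6 controls, and no library went against its label. Log2 fold changes were −2.01 ± 0.0876 (SE) at E10.0 and −2.16 ± 0.0679 at E10.5, with adjusted p of 3.49e-98 and 2.82e-112 in edgeR's exact test. Mutants thus retained between 19.9% and 28.6% of the wild-type mean of their stage. These counts cover the whole gene, so that reads from the undeleted exons of a recombined or null allele are included, as are reads from cells outside the mesenchyme. In RNA from whole buds, fewer cells of a type and less RNA per cell cannot be told apart, here and for every gene below. The level in mutants did not differ between stages beyond its spread (log2 fold change −0.10 ± 0.101, adjusted p = 0.47 in the exact test). The genotype effect at E10.5 minus that at E10.0 was −0.15 ± 0.111 on the log2 scale (adjusted p = 0.95, edgeR's quasi-likelihood test).

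Transcripts of the tissues that keep a *Smad4* allele were present in all groups. *Prrx1*, the marker of limb mesenchyme, averaged 733 ± 81.2 CPM (SD, n=3) in wild type and 601 ± 70.8 CPM (SD, n=4) in mutants at E10.0, with overlapping ranges. At E10.5, it fell from 866 ± 42.6 to 693 ± 59.8 CPM without overlap (log2 fold change −0.32 ± 0.0745, adjusted p = 0.0641, exact test). The 7 mesenchyme markers summed to 1390 to 1604 CPM in wild type and 1207 to 1444 CPM in mutants at E10.0, where 4 were called lower, and to 1655 to 1788 and 1482 to 1683 CPM at E10.5, where 3 were called lower and 1 higher. Among those called lower was *Prrx2*, from 88.3 to 43.8 CPM at E10.0 and from 69.9 to 39.4 CPM at E10.5. The study names *Prrx2* as a SMAD4 target, and *Msx1* of the same 7 is also listed below as a BMP response gene. These markers therefore do not measure the amount of mesenchyme alone. The summed level of 10 ectoderm and ridge markers ranged from 267 to 338 CPM in wild type and from 217 to 314 CPM in mutants at E10.0, and from 253 to 271 and from 189 to 271 CPM at E10.5. The 8 endothelial markers summed to between 295 and 339 CPM in wild type and between 316 and 369 CPM in mutants at E10.0, and to between 299 and 314 and between 313 and 361 CPM at E10.5. The ranges overlapped for both tissues at both stages. Of the ectoderm and ridge markers, 1 of 10, *Krt5*, was called lower at E10.0 (42.5 against 32.3 CPM, adjusted p = 0.0485, exact test) and 0 at E10.5. Markers of 2 rarer cell types were called at E10.0, with 2 of 4 tested macrophage markers and 3 of 3 tested mesothelium markers higher in mutants. At E10.5, 0 macrophage markers were called and 2 mesothelium markers were lower. The 6 macrophage markers summed to 2.45 to 6.29 CPM in wild type and 7.17 to 9.69 CPM in mutants at E10.0, and to 13 to 15.6 and 16.2 to 24.7 CPM at E10.5. The 4 mesothelium and body wall markers summed to 2.40 to 4.20 CPM in wild type and 10.2 to 23.1 CPM in mutants at E10.0, and in the opposite order to 3.77 to 6.39 and 1.5 to 3.26 CPM at E10.5. The part of these cells in the Smad levels was not tested.

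In wild-type buds, the common Smad and 3 of the receptor-regulated Smads dominated the family. Levels were divided by exon length to compare genes, in CPM per kilobase of exon. At E10.0, they were 45 ± 2.36 (SD, n=3) for *Smad4*, 37.3 ± 1.25 for *Smad5*, 33.5 ± 1.36 for *Smad2* and 31.8 ± 1.39 for *Smad3*. The remaining 4 were several-fold lower, with *Smad1* at 7.16 ± 0.179, *Smad7* at 5.14 ± 0.309, *Smad6* at 4.08 ± 0.537 and *Smad9* at 0.613 ± 0.253. *Smad2* and *Smad3* overlapped in range and were the only neighbours in this order that did so at E10.0, whereas at E10.5 *Smad4* and *Smad5* overlapped as well. Among the Smads of the BMP branch, *Smad5* was therefore the main transcript and *Smad9* a trace. On this per-length scale, *Smad1* exceeded *Smad9* 13 ± 4.74 times in wild type and 31.5 ± 8.30 times in mutants (SD, n=4) at E10.0, and 19.5 ± 0.763 and 106 ± 21.1 times at E10.5.

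**Figure D1:**
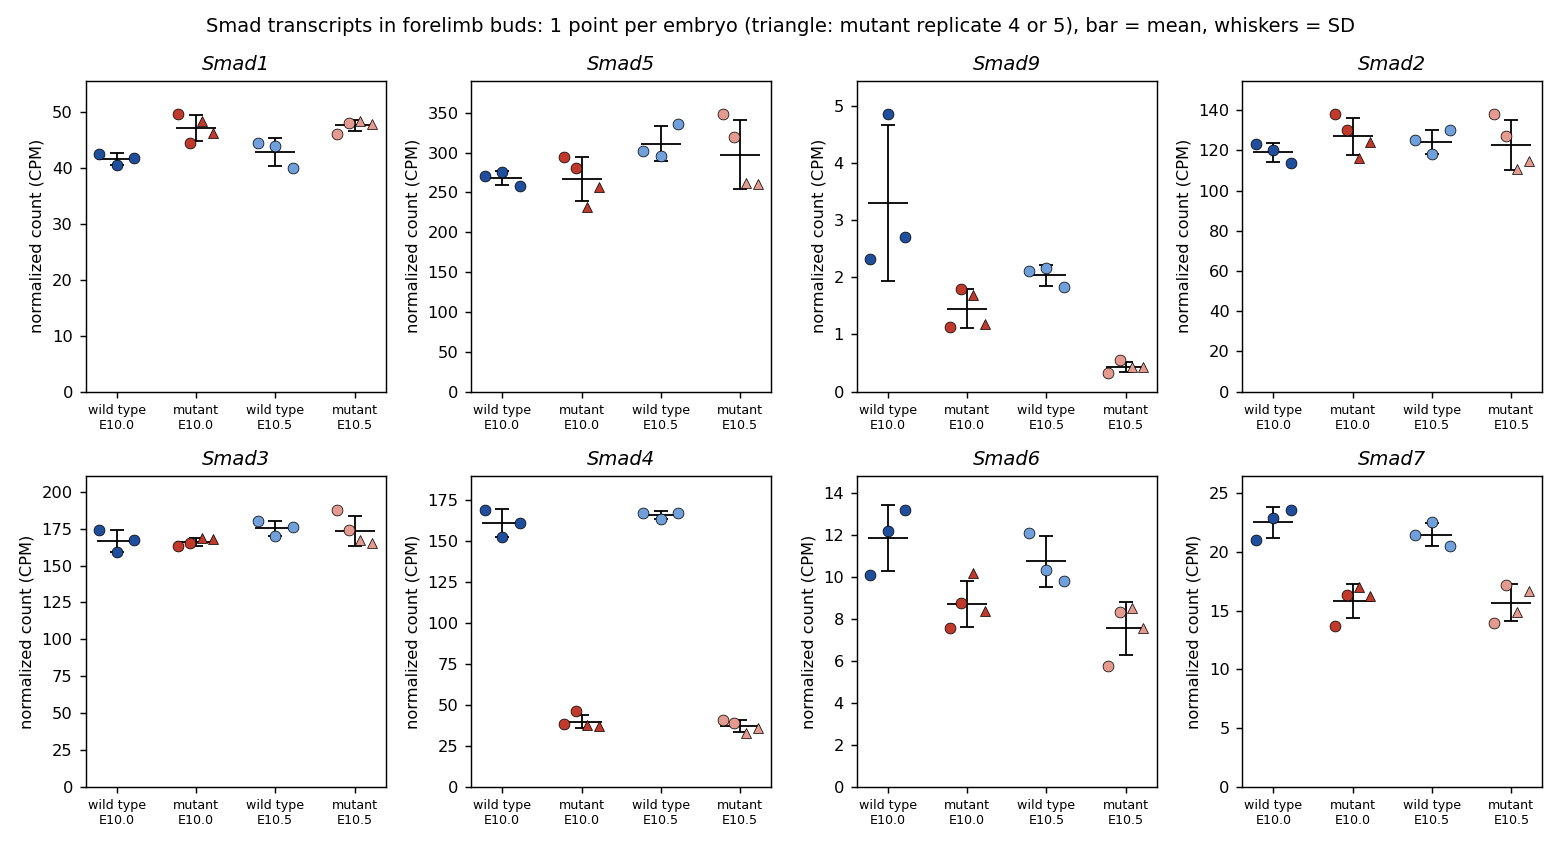
Normalized counts (CPM, linear axes from 0) of the 8 Smad transcripts, 1 point per embryo, with the group mean and SD, for wild type (n=3) and *Smad4* mutants (n=4) at E10.0 and E10.5. Triangles mark mutant replicates 4 and 5. *Smad4* and *Smad9* show the widest gaps between genotypes, *Smad7* is lower in every mutant of each stage, *Smad1* is slightly higher in every mutant, and *Smad3* overlaps throughout.

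The comparison of genotypes asked which members of the family change when *Smad4* is deleted from the mesenchyme. Apart from *Smad4* itself, the transcripts that fell were both inhibitory Smads and *Smad9*, while none of the abundant receptor-regulated Smads was called. Called genes had an adjusted p of 0.1 or less together with a difference of 1.2-fold or more. At E10.0, 4 of the 8 members were called lower and 0 higher, where 3.28% of all tested genes were called lower and 3.33% higher. The 4 include *Smad4*, whose fall was set by the deletion, as do all counts of lower members between genotypes below. At E10.5, the same 4 were called lower and again 0 higher, against 1.54% and 2.19% of all genes. By an adjusted p alone in the exact test, with no fold threshold, the counts were again 4 and 4. With the samples numbered 1 to 3 alone, 4 members were also called at each stage. The groups did not overlap for 3 members that were lower and 1 that was higher at E10.0 (9.78% and 8.06% of all genes), and for 4 lower and 1 higher at E10.5 (6.4% and 6.59%). At both stages together, 3 members were lower without overlap and 1 was higher (1.73% and 1.68% of all genes).

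*Smad7*, an inhibitory Smad of both branches, lies 1.66 Mb from *Smad4* on chromosome 18 (75527183 to 75555589, plus strand, mm9). At E10.0, it stood at 21.0, 22.9 and 23.6 CPM in wild type and at 13.7, 16.3, 17.0 and 16.2 CPM in mutants. At E10.5, the values were 21.4, 22.5 and 20.5 CPM in wild type and 13.9, 17.2, 14.9 and 16.7 CPM in mutants. Every mutant was below every control of its stage. The log2 fold changes, −0.51 ± 0.0832 at E10.0 (adjusted p = 0.000497, exact test) and −0.46 ± 0.0806 at E10.5 (adjusted p = 0.00336), place mutants at 0.701 and 0.729 times the wild-type level. In wild type, *Smad7* did not differ between stages beyond its spread (log2 fold change −0.07 ± 0.0625).

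*Smad6*, the inhibitory Smad with the stronger preference for the BMP branch, is encoded on chromosome 9 (63800953 to 63869866, minus strand, mm9), 195 kb from *Smad3*. Its level at E10.0 was 10.1, 12.2 and 13.2 CPM in wild type and 7.56, 8.73, 10.2 and 8.36 CPM in mutants. At E10.5, it was 12.1, 10.3 and 9.78 CPM in wild type and 5.76, 8.33, 8.52 and 7.56 CPM in mutants. The highest mutant at E10.0, replicate 4, reached the lowest control, whereas the genotypes did not overlap at E10.5. The log2 fold changes were close to those of *Smad7*, at −0.44 ± 0.144 and −0.51 ± 0.154, but with adjusted p of 0.0802 and 0.0452 in the exact test they stood nearer to the threshold. Under edgeR's quasi-likelihood test, *Smad6* was not called at either stage (adjusted p = 0.111 and 0.105). It was also lost at E10.0 in 7 of 14 fits that each left out 1 library, up to an adjusted p of 0.501 without wild-type replicate 3, and at E10.5 in 4 of 14, up to 0.383 without wild-type replicate 1. *Smad6* is also known from endothelium. Of the 8 endothelial markers summed above, 1, *Esam*, was called lower at E10.0 (20.7 against 17.1 CPM, adjusted p = 0.094, exact test) and 0 higher. At E10.5, 0 were called. Their median log2 fold change was 0.0739 at E10.0 and 0.1 at E10.5, against −0.0173 and −0.0104 for all genes. The part of endothelium in the *Smad6* level was not tested.

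*Smad9*, formerly also called Smad8, is the third receptor-regulated Smad of the BMP branch (chromosome 3, 54559504 to 54605179, plus strand, mm9). At E10.0, it was found at 2.32, 4.85 and 2.71 CPM in wild type and at 1.13, 1.80, 1.69 and 1.18 CPM in mutants. At E10.5, it stood at 2.11, 2.16 and 1.82 CPM in wild type and at 0.320, 0.546, 0.424 and 0.423 CPM in mutants. The groups were separate at both stages, and the E10.5 mutants were the lowest of the 4 groups, with 13 to 28 reads each. The difference on the log2 scale came to −1.18 ± 0.385 at E10.0 (adjusted p = 0.000688, exact test) and at E10.5 −2.24 ± 0.174 (adjusted p = 6.6e-11), that is 2.27-fold and 4.72-fold lower. At E10.0, the size rested in part on wild-type replicate 2, the highest of all embryos, without which the log2 fold change was −0.79 and the adjusted p 0.044.

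Promoter sequence is shown for *Smad6* and *Smad9*, because both fell in mutants at both stages and lie on other chromosomes than the deleted gene. The windows are the 250 bases before the RefSeq transcription start (build GRCm38.p6), chr9:64022060-64022309 on the minus strand for *Smad6* and chr3:54755332-54755581 on the plus strand for *Smad9*, written 5′ to 3′. Capitals mark matches on either strand to 3 Smad-binding motifs, the palindrome GTCTAGAC, the GC-rich GGCGCC and the single element GTCTG.
Smad6: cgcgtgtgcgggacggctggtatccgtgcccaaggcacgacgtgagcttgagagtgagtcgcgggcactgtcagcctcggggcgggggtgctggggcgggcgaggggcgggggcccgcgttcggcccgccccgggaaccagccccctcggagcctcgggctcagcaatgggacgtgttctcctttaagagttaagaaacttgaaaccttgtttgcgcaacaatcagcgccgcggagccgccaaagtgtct
Smad9: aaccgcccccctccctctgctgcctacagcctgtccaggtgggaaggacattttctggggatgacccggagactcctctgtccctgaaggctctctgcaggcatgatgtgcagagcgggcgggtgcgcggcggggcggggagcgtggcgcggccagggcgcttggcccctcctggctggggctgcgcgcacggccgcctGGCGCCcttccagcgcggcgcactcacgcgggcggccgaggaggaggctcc

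The *Smad9* window held 1 match to GGCGCC and the *Smad6* window held no match to any of the 3 motifs. Among 32851 RefSeq promoter windows of the same length, 9.59% held GGCGCC, 42.2% held GTCTG and 0.167% held GTCTAGAC. The single windows of *Smad1* and *Smad3* held no match either, and of the 3 alternative windows of *Smad5* 1 held GGCGCC and 1 held GTCTG. These matches are a description of the letters in the windows. Both promoters were rich in G and C, at 66.8% in *Smad6* and 73.2% in *Smad9*.

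The receptor-regulated Smads that make up most of the family did not pass the threshold in either comparison of genotypes. *Smad1* (chromosome 8, 81862294 to 81923417, minus strand, mm9) was nevertheless separate between genotypes. It stood at 42.5, 40.5 and 41.8 CPM in wild type and 49.6, 44.4, 48.4 and 46.3 CPM in mutants at E10.0. At E10.5, it was 44.5, 44.0 and 40.0 CPM in wild type and 46.1, 48.1, 48.4 and 47.8 CPM in mutants. All mutants were above all controls of both stages apart from the lowest mutant at E10.0, which lay at 44.4 CPM beside the highest control at E10.5 of 44.5 CPM. The log2 fold changes of 0.18 ± 0.0407 and 0.15 ± 0.0509 had adjusted p of 0.22 and 0.559 in the exact test and were not called. A test of genotype over both stages, with stage as a term, was added after this separation had been seen and is therefore not independent of it. In that quasi-likelihood test *Smad1* was higher by 0.17 on the log2 scale, or 12.3%, with an adjusted p of 0.0273. This passed the adjusted p, as 6.83% of all genes did in the upward direction, but stayed under the fold threshold. The adjusted p ranged from 0.000671 to 0.0657 over 20 alternative fits. In the same test, 4 members were called lower (3.07% of all genes) and 0 higher (3.87% of all genes). They were the 4 named above, with the deleted *Smad4* among them. *Smad6* had an adjusted p of 0.00953, which stayed at or below 0.0338 in all 20 alternatives.

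*Smad5*, *Smad2* and *Smad3* overlapped between genotypes at both stages. *Smad3* (chromosome 9, 63494574 to 63605801, minus strand, mm9) ranged from 159 to 174 CPM in wild type and from 163 to 169 CPM in mutants at E10.0, and from 170 to 180 and from 165 to 188 CPM at E10.5. Its fold change, mutant over wild type, was 0.996 at E10.0 with a 95% interval of 0.945 to 1.05, and 0.987 (0.923 to 1.06) at E10.5. *Smad2* (chromosome 18, 76401234 to 76465385, plus strand, mm9), 2.54 Mb from *Smad4*, stood at 123, 120 and 114 CPM in wild type at E10.0 and at 125, 118 and 130 CPM at E10.5, and overlapped with the mutants at both stages. Its fold was 1.07 (0.979 to 1.16) and 0.990 (0.887 to 1.10). *Smad5* (chromosome 13, 56804371 to 56843738, plus strand, mm9) stood at 271, 275 and 258 CPM in wild type at E10.0 and at 302, 296 and 336 CPM at E10.5. The mutants spanned these values at both stages, and the fold was 0.995 (0.893 to 1.11) and 0.955 (0.810 to 1.13). These intervals were computed from the SE with a normal quantile and are narrow for 3 and 4 embryos. The interval of *Smad5* at E10.5 is the only one that reaches past a 1.2-fold difference. They average over both kinds of mutant library, and the values differed in the samples numbered 1 to 3 alone. There, *Smad5* turned to a log2 fold change of 0.12 at E10.0 and 0.11 at E10.5, with adjusted p of 0.329 and 0.577 in the exact test. *Smad2* was at 0.19 and 0.10, with adjusted p of 0.109 and 0.603. Over both stages, *Smad2* stood at 0.15 and *Smad5* at 0.12 in these samples, with adjusted p of 0.0502 and 0.0979 in the quasi-likelihood test, both under the fold threshold.

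**Figure D2:**
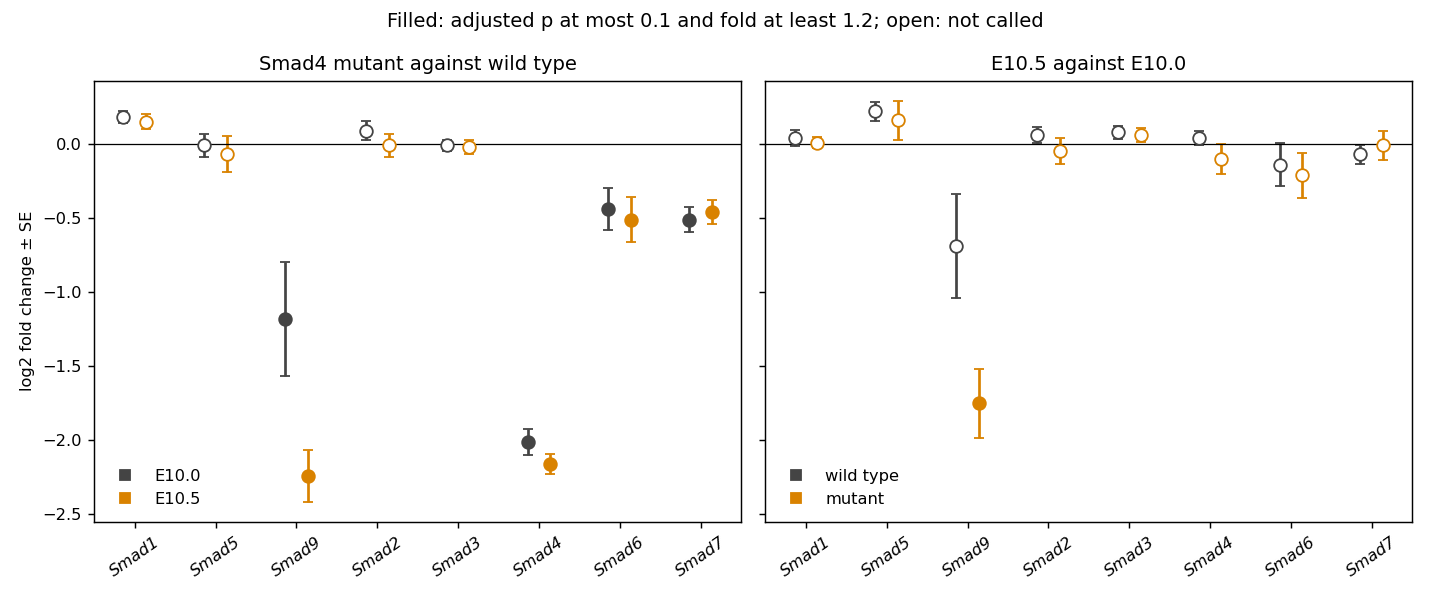
Log2 fold changes with SE of the 8 Smad transcripts, for *Smad4* mutant against wild type at each stage (left) and for E10.5 against E10.0 in each genotype (right). Filled points are called genes. *Smad4*, *Smad6*, *Smad7* and *Smad9* are filled on the left at both stages, and *Smad9* in mutants is the only filled point on the right.

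Spread within the mutant groups was unequal among the members and moved with the 2 kinds of library. *Smad5* was 295 and 281 CPM in mutant replicates 1 and 3 at E10.0 and 232 and 257 CPM in replicates 4 and 5. At E10.5, it was 348 and 319 CPM in replicates 1 and 2 and 262 and 260 CPM in replicates 4 and 5. *Smad2* followed the same split, at 138 and 130 against 116 and 124 CPM at E10.0, and at 138 and 127 against 111 and 115 CPM at E10.5. Replicates 4 and 5 thus had 0.850 and 0.782 times the *Smad5* level of the other mutants at the 2 stages, and 0.894 and 0.856 times their *Smad2* level. *Rn45s* stood 5.88 and 15.4 times higher in these libraries. The ratio was 1.14 at both stages for *Smad6*, 1.11 and 1.02 for *Smad7*, and 0.981 and 0.979 for *Smad9*. Of the members that fell in mutants, only *Smad4*, at 0.885 and 0.862, was clearly lower in replicates 4 and 5 than in the other mutants. After subtraction of the group means, *Smad2* and *Smad5* correlated at r = 0.96 over the 14 embryos, the highest value of the 28 pairs of members, while *Smad2* and *Smad6* correlated at −0.73. These correlations are across libraries that also differ in depth and in *Rn45s*, and the part of these in the correlations was not tested.

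**Figure D3:**
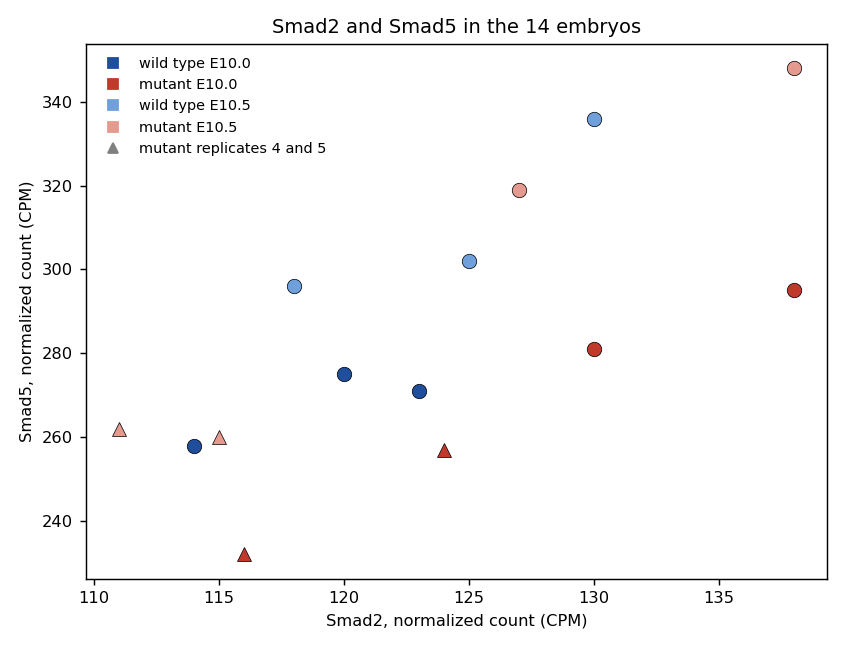
*Smad5* against *Smad2* in normalized counts (CPM, axes not from 0), 1 point per embryo (n=14), coloured by group, with triangles for mutant replicates 4 and 5. The 4 triangles lie at 232 to 262 CPM of *Smad5* and the other 4 mutants at 281 to 348 CPM.

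Summed by class on the per-length scale, the loss of *Smad4* transcript was not matched by other members. The 8 transcripts together came to 165 ± 3.78 CPM per kilobase in wild type and 131 ± 5.84 in mutants at E10.0, and to 175 ± 5.0 and 134 ± 11.7 at E10.5. The common Smad made up 27.3% ± 0.951 of this pool in wild type and 8.51% ± 0.732 in mutants at E10.0. The corresponding shares at E10.5 were 26.6% ± 0.444 and 7.73% ± 0.212. *Smad2* and *Smad3* together made up 39.7% ± 0.457 and 51.6% ± 0.893 of it at E10.0. The sum of these 2 in CPM per kilobase was 65.3 ± 2.25 in wild type and 67.3 ± 2.08 in mutants, so that their larger share came with a smaller pool. The same held for *Smad1*, *Smad5* and *Smad9* together, at 45.1 ± 1.33 and 45.5 ± 3.82 CPM per kilobase. The inhibitory pair summed to 9.22 ± 0.846 CPM per kilobase in wild type and 6.62 ± 0.693 in mutants at E10.0, and to 8.61 ± 0.510 and 6.18 ± 0.713 at E10.5. Per unit of *Smad4*, *Smad1*, *Smad2*, *Smad3* and *Smad5* summed to 2.44 ± 0.109 in wild type and 10.2 ± 0.953 in mutants at E10.0, and to 2.57 ± 0.0738 and 11.3 ± 0.357 at E10.5. Within the inhibitory pair, *Smad7* over *Smad6* was 1.27 ± 0.0951 in wild type and 1.21 ± 0.0764 in mutants at E10.0. Its values at E10.5 were 1.34 ± 0.146 and 1.40 ± 0.184. This ratio overlapped between genotypes at both stages. These sums were not tested.

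**Figure D4:**
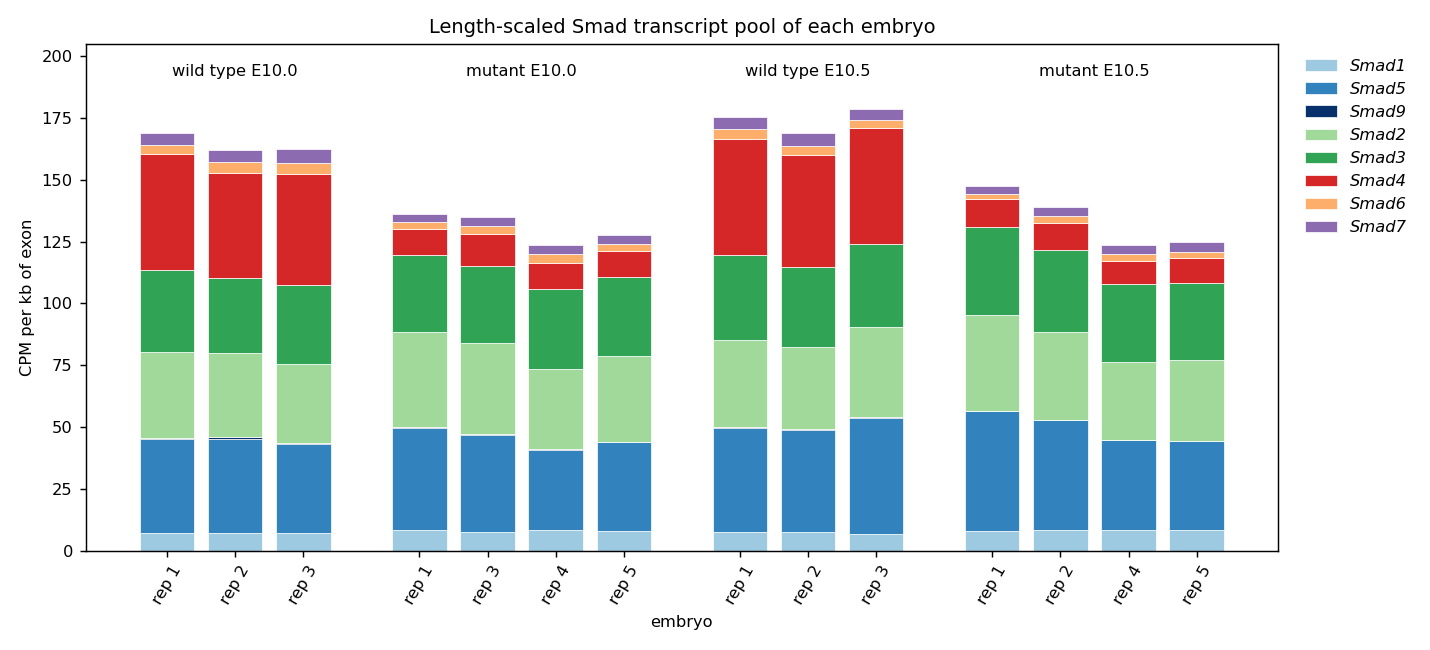
Length-scaled Smad transcript pool of each embryo, in CPM per kilobase of exon, stacked by gene, for the 14 embryos in their 4 groups. The wild-type bars reach 162 to 179 and the mutant bars 124 to 148, and the *Smad4* segment is the one that differs most.

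The comparison of stages asked whether the family changes as the limb bud grows from 30 to 35 somites. *Smad9* fell in mutants, and in wild type it was called only under some alternatives. In wild type, 0 of 8 members were called in either direction by the exact test, where 5.39% of all genes were called higher and 4.74% lower at E10.5, shares at which less than 1 of 8 genes would be called. The shares stand for 668 higher and 588 lower genes and varied with the wild-type library left out. The counts were 302 and 182 without replicate 2 at E10.0, and 316 and 196 without replicate 3 at E10.5. They were 464 and 363 without replicate 3 at E10.0, and 527 and 296 without replicate 2 at E10.5. Without replicate 1, they were 682 and 612 when it was left out at E10.0, and 682 and 675 when left out at E10.5. At an unadjusted p under 0.05 only *Smad9* passed, and the quasi-likelihood test and DESeq2 also called 0. *Smad5* averaged 268 CPM at E10.0 and 311 CPM at E10.5 without overlap, a log2 fold change of 0.22 ± 0.0639 with an adjusted p of 0.267. The adjusted p was 0.0237 when wild type was fitted apart and 0.0265 in the samples numbered 1 to 3, but the difference stayed under the fold threshold. *Smad9* was lower by 0.69 ± 0.353 on the log2 scale, with an adjusted p of 0.113, and was also separate, at 2.32 to 4.85 CPM against 1.82 to 2.16 CPM. The stages were separate for 16.6% of all genes that were higher and 20.4% that were lower at E10.5. It was called when the wild-type samples were fitted apart (adjusted p = 0.0574), but without wild-type replicate 2 at E10.0 its adjusted p rose to 0.651. With the samples numbered 1 to 3 alone, *Smad9* was called at an adjusted p of 0.0932 in the same exact test.

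In mutants, 1 of 8 members was called lower at E10.5 and 0 higher, where 8.4% of all genes were called lower and 10.8% higher. The member was *Smad9*, which fell from 1.45 ± 0.345 CPM (SD, n=4) to 0.429 ± 0.0925 CPM, 3.37-fold lower (log2 fold change −1.75 ± 0.232, adjusted p = 1.11e-07, exact test). The count was 1 as well with the samples numbered 1 to 3 alone. The other 7 had log2 fold changes between −0.21 and 0.16. Neither the inhibitory Smads nor *Smad1* passed the threshold between stages in mutants, with adjusted p of 0.364 for *Smad6*, 0.968 for *Smad7* and 0.947 for *Smad1*.

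The difference of the genotype effect between stages was tested as an interaction. Among all genes, 0.186% were called, and of the 8 Smads 0 were called by the quasi-likelihood test and 0 by DESeq2. With the samples numbered 1 to 3 alone, 0 were called as well. Only *Smad9* had an unadjusted p under 0.05. The interaction was −1.06 ± 0.422 for its log2 fold change, the E10.5 effect minus the E10.0 effect, with an adjusted p of 0.717 in edgeR's quasi-likelihood test and of 0.212 to 1.0 over the alternatives. The larger loss of *Smad9* at E10.5 was therefore not distinguishable from that at E10.0 after adjustment over all genes. For the other 7, the interaction lay between −0.15 and 0.06.

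The rest of the pathway was examined through lists of its known parts, whose counts follow from the same tests over all genes. For each list, the shares to read against are 3.33% of all genes called higher and 3.28% lower at E10.0, and 2.19% and 1.54% for E10.5. Of the type I receptors, which phosphorylate the receptor-regulated Smads, 6 of 7 were tested and 0 were called in any of the 4 comparisons. By a wide margin, the most abundant were *Tgfbr1* and *Bmpr1a*, at 337 ± 21.0 and 279 ± 9.81 CPM in wild type at E10.0 (not scaled by length). Of 4 type II receptors, 0 were called at E10.0, and *Tgfbr2*, the TGFβ receptor, rose at E10.5 from 31.4 to 42.3 CPM (log2 fold change 0.43 ± 0.0557, adjusted p = 0.00046, exact test). The median log2 fold change of the receptors was 0.0226 for type I and 0.134 for type II at E10.0, where the median of all genes was −0.0173, and −0.0433 and −0.0294 at E10.5, against −0.0104.

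Among 8 tested BMP and GDF ligands, 1 was called higher and 1 lower at E10.0, and 2 higher and 1 lower at E10.5. *Bmp4* rose at both stages, from 53.6 to 69.7 CPM at E10.0 (log2 fold change 0.38 ± 0.0775, adjusted p = 0.0114) and from 55.7 to 70.6 CPM at E10.5 (0.34 ± 0.0976, adjusted p = 0.0341). *Bmp2* rose at E10.5 from 2.95 to 5.54 CPM, and *Gdf5* at E10.0 and *Bmp5* at E10.5 fell, from 0.746 to 0.311 CPM and from 7.93 to 5.17 CPM. Of 4 tested TGFβ, activin and nodal ligands, only *Mstn*, which encodes myostatin, was called, higher at E10.0 (0.712 against 1.69 CPM). Of 4 tested muscle precursor markers, 1, *Myf5*, was called higher in the same mutants, at 1.40 against 0.579 CPM, and 0 lower. The 4 markers summed to 80.0 to 95.2 CPM in wild type and 82.2 to 108 CPM in mutants at E10.0, with overlap. The part of muscle precursors in the *Mstn* level was not tested.

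Genes whose products act on Smad proteins or bind them were counted in 3 lists. Of 15 tested ubiquitin ligases, deubiquitinases and phosphatases, 0 were called higher and 1 lower at E10.0 and 0 in either direction at E10.5. The called gene was *Ctdsp1*, encoding a small C-terminal domain phosphatase, at 112 CPM in mutants against 135 CPM (adjusted p = 0.0524, exact test). Of 10 tested anchors, transport factors and membrane regulators, 1 rose and 1 fell at E10.0, and 0 rose and 1 fell at E10.5. The gene that rose was *Dab2*, an adaptor of receptor endocytosis, from 36.7 to 45.9 CPM (adjusted p = 0.0632, exact test). *Pmepa1*, whose protein sequesters receptor-regulated Smads and is known as a TGFβ target, fell at both stages by 0.48 ± 0.0928 and 0.45 ± 0.0652 on the log2 scale. Of 21 tested nuclear partners, 3 rose and 1 fell at E10.0, and 0 rose and 1 fell at E10.5. *Runx2*, the osteogenic transcription factor that binds Smads, fell at both stages, from 6.34 to 3.92 CPM and from 13.3 to 5.89 CPM (adjusted p = 0.0094 and 2.08e-08, exact test). *Zeb1*, *Ncor1* and *Ep300* rose at E10.0, by 0.46, 0.27 and 0.33 on the log2 scale.

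The BMP response genes stood apart from these lists by their counts. Of 12, including *Smad6* and *Smad7*, 8 fell and 0 rose at E10.0, and 10 fell and 0 rose at E10.5. Their median log2 fold change was −0.634 and −0.594, against −0.0173 and −0.0104 for all genes. The study named *Id1*, *Id2*, *Id3*, *Msx2*, *Grem1*, *Smad6* and *Smad7* with these same samples among its data. These counts are therefore not independent evidence of a direction. The study also used SMAD4 ChIP-seq. By whole-mount in situ hybridization, it reported altered spatial expression of *Id1*, *Id2*, *Id3*, *Msx2*, *Smad6* and *Smad7* in mutants. *Id1*, which encodes an inhibitor of DNA binding and is a classical BMP target, went from 40.1 ± 8.45 to 17.0 ± 3.72 CPM at E10.0 and from 35.0 ± 2.49 to 13.9 ± 0.438 CPM at E10.5. *Id3* went from 83.0 ± 21.5 to 35.2 ± 9.61 CPM and from 57.8 ± 11.3 to 22.2 ± 3.52 CPM. *Msx2*, a homeobox gene of the BMP response, fell by 1.05 ± 0.256 and 1.66 ± 0.116 on the log2 scale. *Id2* fell by 0.41 ± 0.145 and 0.64 ± 0.0838, changes of a size near those of *Smad6* and *Smad7*. *Grem1*, the secreted BMP antagonist, fell from 23.2 to 9.97 CPM and from 28.6 to 13.4 CPM. *Id1*, *Id2*, *Id3* and *Msx2* were called at both stages, with adjusted p of at most 0.00463 in the exact test.

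**Figure D5:**
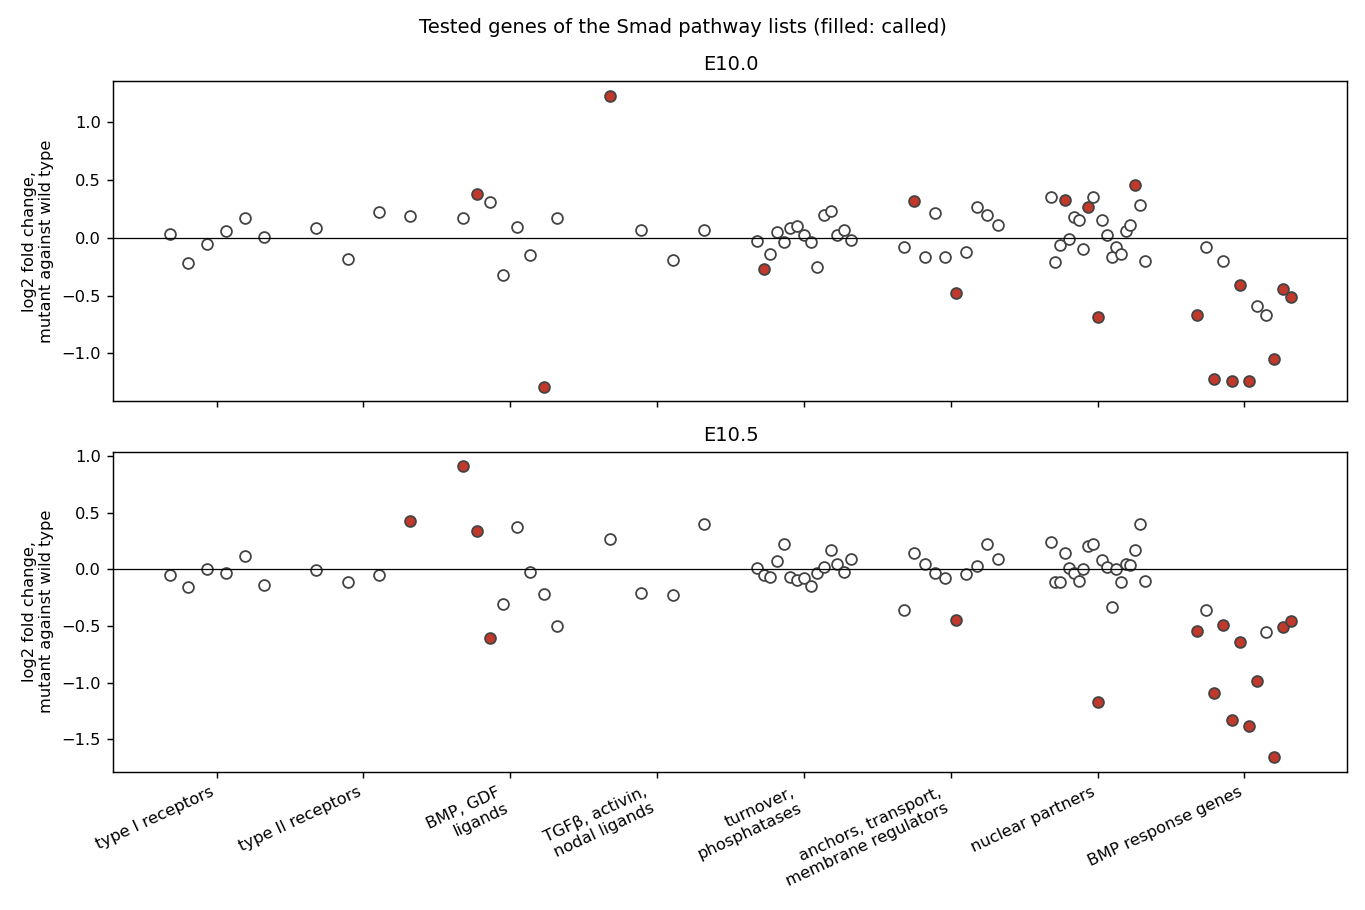
Log2 fold changes (mutant against wild type) of the tested genes of 8 Smad pathway lists at E10.0 (top) and E10.5 (bottom), 1 point per gene in alphabetical order within a list, filled where called. *Smad6*, *Smad7* and *Bambi* belong to the BMP response list, and *Bambi* also to the membrane regulators. The receptor lists hold 1 filled point in all, and the BMP response list 8 and 10.

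*Smad7* and *Smad2* share a chromosome with the deleted gene, and the tested genes within 5 Mb of *Smad4* were therefore counted. Of 36 such genes, 3 were called higher and 3 lower at E10.0, where 3.33% of all genes were called higher and 3.28% lower. At E10.5, 5 of the 36 were called higher and 1 lower, against 2.19% and 1.54% of all genes. Calls were thus more frequent near *Smad4* than over all genes, most so for higher genes at E10.5, which was not tested. *Smad7* was among the lower ones at both stages and was the only one at E10.5. *Lipg*, which encodes endothelial lipase, fell from 10.9 to 6.67 CPM at E10.0 (log2 fold change −0.71 ± 0.0880, adjusted p = 9.24e-06, exact test). *Poli*, encoding a DNA polymerase, and *Tcf4*, a basic helix-loop-helix factor, rose at both stages, *Poli* from 12.7 to 18.2 CPM and from 12.1 to 21.3 CPM, as did *Myo5b*, which encodes an unconventional myosin. *Slc14a2*, a urea transporter gene, rose at E10.5 from 0.444 to 1.87 CPM. The 36 genes had a median log2 fold change of −0.0126 at E10.0 and, at E10.5, of −0.000507.

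The genes whose levels followed each member most closely were found by Pearson's r of log2(CPM + 1) over the 14 embryos. They are a description, since the embryos share genotype, stage and library kind. *Smad9* was most like *Tshz1*, *Id3* and *Pkdcc* (r = 0.959, 0.956 and 0.956), and r was 0.612, 0.812 and 0.666 after subtraction of the group means. *Smad7* was most like *Pth1r*, *Prrx2* and *Id1* (r = 0.960, 0.947 and 0.924, and 0.748, 0.712 and 0.424 within groups). *Smad6* was most like *Tmbim6*, *Igsf9* and *Mmp14* (0.934, 0.932 and 0.931, and 0.875, 0.898 and 0.852 within groups). *Smad1* was most like *Dmrt3*, *Stc1* and *Bmp4* (0.872, 0.868 and 0.865, and 0.524, 0.594 and 0.502 within groups). Of these, *Dmrt3* was near the floor, at a mean of 0.299 CPM in wild type at E10.0. For *Smad4*, they were *Zadh2*, *1110032A04Rik* and *Dpep1*, at r between 0.963 and 0.970, and 0.804, 0.23 and 0.71 within groups. The level of *1110032A04Rik* was low as well, at a mean of 1.62 CPM in wild type at E10.0.

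The abundant receptor-regulated Smads, like *Smad6*, had partners that followed them within groups as well. *Smad2* was most like *Kif5b*, *Fem1b* and *Fzd3* (r = 0.973, 0.971 and 0.960, and 0.972, 0.980 and 0.970 within groups). *Smad5* was most like *Rmnd5a*, *2010106G01Rik* and *Fam135a* (0.963, 0.963 and 0.955, and 0.957, 0.963 and 0.970 within groups). *Smad3* was most like *Cd93*, *Rnf144a* and *Sept3* (0.850, 0.836 and 0.833, and 0.893, 0.774 and 0.745 within groups). Among the members themselves, the closest pair over all 14 embryos was *Smad4* and *Smad7* at r = 0.91, followed by *Smad6* and *Smad7* at 0.88. Within groups, the first of these was −0.09 and the second 0.72.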

How the data were processed

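RNA-seq was available for 14 embryos. Per the labels and the study's methods, the authors made unstranded polyA libraries, sequenced single reads of 50 cycles, aligned them to mm9 with TopHat 2.0.13 and counted uniquely mapped reads per gene with htseq-count, ignoring strand. The deposited files hold raw counts for 23284 symbols. Reads outside genes made up 6.18% to 9.86% and ambiguous reads 1.49% to 1.75% of reads and were left out of library sizes. Sex-chromosomal and mitochondrial symbols (1041) were removed, and the test covered the 12393 genes that reached 1 CPM in 3 or more samples. Pairs of groups were compared by edgeR's exact test (edgeR 4.0.16, R 4.3.3), with TMM factors of 0.9343 to 1.035, tagwise dispersions from the 14 samples with 10 prior degrees of freedom, and Benjamini-Hochberg adjustment. Calls required an adjusted p of 0.1 or less and a 1.2-fold difference or more. The interaction was tested by edgeR's quasi-likelihood test, without a fold threshold. Alternatives were DESeq2 1.42.0, the quasi-likelihood test, RLE factors, no filter, no fold threshold, *Rn45s* left out, separate fits, a replicate block, samples numbered 1 to 3 alone and leaving out each sample. A quasi-likelihood test of genotype over both stages was added after seeing the data. As the exact test gives no standard error, each SE was derived from the SDs of the CPM values by the delta method. The SE of the interaction combines those of both stages.

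Exon lengths and mm9 positions came from GENCODE M1, by symbol (23166 of 23284 symbols were placed there or by a RefSeq symbol), and promoters from RefSeq. Scripts were tested on simulated data. The members and lists were chosen with earlier results of these data known. The genes named beside the members were, for each list, called genes with the smallest p, at most 3 per direction and comparison, *Id1*, *Id2*, *Id3* and *Msx2*, up to 5 called genes within 5 Mb of *Smad4*, and the 3 genes of highest correlation with each member. *Ldlrad4* of the lists was not matched to a counted symbol. Marker lists for erythroid cells (2650 to 5091 CPM over all embryos, 0 of 4 tested genes called), muscle precursors (74.5 to 108 CPM) and neural crest (3.39 to 7.79 CPM, 0 genes tested) were computed as well. Samples with the same replicate number in different groups did not deviate together (mean correlation −0.0814 over 4 pairs), and no 2 replicates agreed within counting noise. Protein sequences were not used here.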

Additional observations from a re-analysis of the deposited data

Results flagged for a closer look

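*Smad4* in mutant replicate 3 at E10.0 stood at 46.0 CPM, above the other 3 mutants of that group at 36.9, 37.7 and 38.4 CPM. Its gap to the next embryo was 0.835 of the range of the group, over the limit of Dixon's test for 4 samples. Chance exceeds this limit in about 1 of 20 groups, and 16 groups of 4 mutants were examined. The value remained at 28.6% of the wild-type mean, and the *Smad4* call did not depend on this embryo.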

How the results depend on the processing

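The calls of *Smad4*, *Smad7* and *Smad9* between genotypes held under every alternative tried at both stages, and 4 members were called over both stages in all 20 alternatives. *Smad6* was lost at E10.0 under the quasi-likelihood test (adjusted p = 0.111), with *Rn45s* left out (0.104) and without the filter (0.124), and at E10.5 under the quasi-likelihood test (0.105). When 1 library was left out, its adjusted p ranged from 0.0318 to 0.501 at E10.0 and from 0.0314 to 0.383 at E10.5. Between stages in wild type, the count of called members went from 0 to 1, *Smad9*, with genotypes fitted apart, with the replicate block (adjusted p = 0.0869) and with the samples numbered 1 to 3 alone, and it ranged from 0 to 1 when 1 library was left out (1 without replicate 1 of either mutant group or of wild type at E10.0). The cause was not tested.

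Signs turned only in members that were not called and lay near 0. With the replicate block, log2 fold changes were −0.01 for *Smad1* between stages in mutants, 0.07 for *Smad2* at E10.5, 0.0 for *Smad3* and 0.13 for *Smad5* at E10.0, 0.07 for *Smad5* at E10.5 and 0.1 over both stages. With the samples numbered 1 to 3 alone, they were 0.1 for *Smad2* at E10.5, 0.05 for *Smad3* at E10.5, 0.02 over both stages and 0.06 in the interaction, 0.12, 0.11 and 0.12 for *Smad5* at E10.0, at E10.5 and over both stages, and 0.06 for *Smad7* between stages in mutants. With DESeq2, RLE factors, *Rn45s* left out or no filter, *Smad3* and *Smad5* were at 0.01 at E10.0, and at 0.0 when stages were fitted apart. *Smad3* over both stages was at 0.0 with DESeq2, RLE factors or *Rn45s* left out. When 1 library was left out, the ranges were −0.02 to 0.04 for *Smad1* between stages in mutants, −0.07 to 0.03 for *Smad2* at E10.5, −0.04 to 0.03, −0.05 to 0.01, −0.03 to 0.0 and −0.05 to 0.02 for *Smad3* at E10.0, at E10.5, over both stages and in the interaction, −0.05 to 0.05 and −0.07 to 0.0 for *Smad5* at E10.0 and over both stages, −0.16 to 0.04 and −0.01 to 0.11 for *Smad6* and *Smad7* in the interaction, and −0.07 to 0.05 for *Smad7* between stages in mutants.

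Over all genes, 413 were called higher and 406 lower at E10.0, against 512 and 336 with RLE factors, 519 and 313 with *Rn45s* left out, 494 and 302 without the filter, 765 and 1253 in the samples numbered 1 to 3, and 124 and 130 without wild-type replicate 3. With the replicate block, whose numbers are not known to pair the samples, 625 and 1336 were called at E10.0, against 147 and 133 for E10.5. With this block, no genotype call of a Smad member was lost. *Smad6* at E10.0 was lost with *Rn45s* left out, without the filter and without wild-type replicate 3, as given above. Depth limits *Smad9* most, with 13 to 28 reads in mutants at E10.5.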
